A study of Mus musculus with 8 samples.

Results

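The step from 1 h to 4 h of lipopolysaccharide (LPS) was followed in macrophages labelled WT, as the change from the primary to the secondary wave of the transcriptional response. The members are the 4 WT RNAs of the arrays titled for 1 h and 4 h, out of 16 RNAs on 8 arrays in the whole series, and all gene probes of the arrays were used. The choice of RNAs rested on the labels alone and used no measured value. Gene expression had been measured on Agilent 2-colour arrays on which WT and FURIN KO RNA of the same time shared an array. WT RNA was in Cy3 for replicate 1 and in Cy5 for replicate 2, so each time holds WT once in each dye and the dye cannot be told apart from the replicate number.

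All mice were C57BL/6. The WT animals were littermates of LysMCre-fur(fl/fl) mice, in which Cre from the Lyz2 (LysM) locus removes FURIN in myeloid cells, and the KO macrophages came from the latter. Cells were washed out of the resting peritoneal cavity, cultured for 24 h and freed of nonadherent cells, and after 1 h in fresh medium the adherent cells received LPS from E. coli at 1 μg/ml for 1 h or 4 h. Adherence was the only selection, so lymphocytes that stayed on the plate were measured with the macrophages. The labels name 2 biological replicates per time without saying whether these were different animals or pools, and the p-values therefore measure the spread between these samples alone. The times used here are those of the titles, since the growth protocol gives the same duration of LPS, 4 h, to all samples. The 1 h arrays lay in row 1 of the slide and the 4 h arrays in row 2, so position on the slide and time cannot be told apart.

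LPS is a cell wall component of Gram-negative bacteria that macrophages sense through TLR4 with CD14 and MD-2. MYD88-dependent signalling leads to NF-kB and MAP kinases and switches on primary genes from poised promoters within minutes, among them immediate early transcription factors, TNF and chemokines. TRIF-dependent signalling leads to IRF3 and interferon beta, which is secreted and acts back on the cells through the interferon receptor, JAK kinases and a complex of transcription factors. That complex binds interferon-stimulated response elements (ISRE) and induces a secondary wave of antiviral genes.

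The 4 WT channels had between 43.77% and 47.65% of gene spots well above background, and no gene spot was saturated. Of 37018 genes and transcripts, 36927 passed the filter on low intensity and were tested, and 20835 of these carry a gene symbol. The median SD between the 2 replicates was 0.0965 on the log2 scale. The macrophage genes Adgre1, Csf1r, Cd14 and Lyz2 were bright in all 4 WT channels, with the lowest value, 15.08 on the log2 scale, for Adgre1 at 4 h. Of 11 neutrophil markers tested, 6 were not well above background in any WT channel. Furin, which codes for the protease deleted in the KO, had log2 intensities of 11.27 and 11.24 at 1 h and 12.02 and 11.64 at 4 h in WT RNA, in replicate order. In the RNA labelled KO it was lower at 1 h, with 10.71 and 10.69, but not at 4 h, with 12.02 and 11.97, so the KO labels at 4 h were not borne out by this probe. Whether the probe lies inside the deleted part was not tested. Lyz2, whose locus carries Cre in the KO mice, was lower in KO than in WT RNA at both times. It had 17.08 and 16.83 in KO beside 18.10 and 17.67 in WT at 1 h. At 4 h it had 16.24 and 15.76 in KO beside 17.27 and 16.89 in WT. The paper states that macrophages of these mice lacked nearly all Furin mRNA.

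Between 1 h and 4 h, 10935 genes and transcripts changed in WT macrophages, which is 29.6% of those tested (limma, adjusted p under 0.05). Of these, 5135 were higher at 4 h (13.9% of those tested) and 5800 lower (15.7%). Changes over 2-fold were found in 1789 upwards (4.84%) and 2129 downwards (5.77%). Among genes with a name, 3533 (17.0%) rose and 4386 (21.1%) fell, and among 4603 long intergenic transcripts 534 were higher and 289 lower. Every one of the 10935 had the same sign in both replicates. A call rests on the mean of these replicates, so that agreement is largely set by the selection. Across the 36927 features, which are not independent replicates, the changes in replicates 1 and 2 correlated with r = 0.914. The middle of the distribution did not move, with a median change of 0.00 on the log2 scale, and the 10th and 90th percentiles lay at -0.66 and 0.56. The balance of directions moved with the scaling between arrays. With loess normalization within arrays alone, 2819 were higher and 7594 lower, the higher ones made up 27.1% of calls in place of 47%, and the median of all features moved to -0.16.

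The lists of genes followed below were compared with this background in the plot of the members of each list. The interferon-stimulated genes stood highest, with a median change of 3.86, followed by the late cytokines and effectors with 2.16. The lowest medians were those of MHC class II presentation, -1.04, and of prostaglandin and leukotriene synthesis, -1.02.

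**Figure D1:**
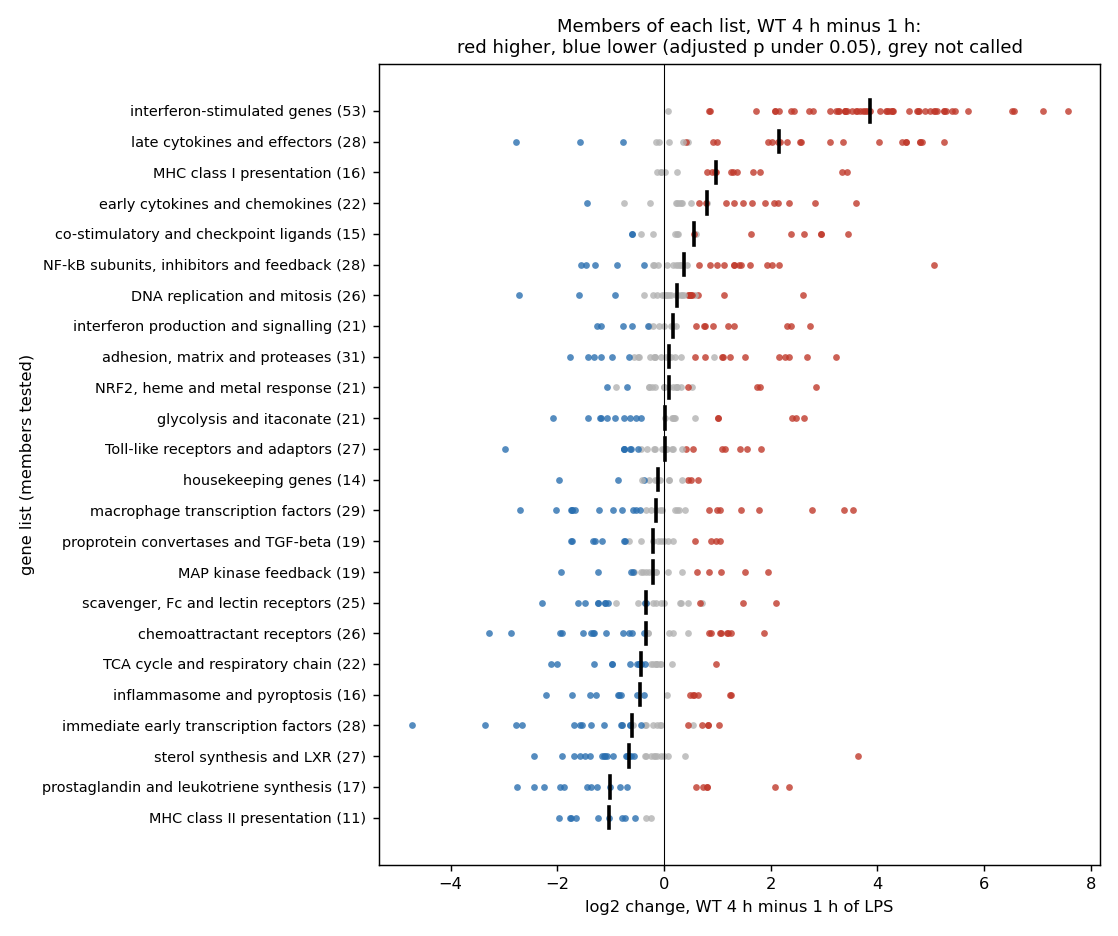
Log2 change from 1 h to 4 h of LPS in WT macrophages (x axis) for the members of each gene list (y axis, with the number tested), 1 point per gene, red for higher, blue for lower and grey for not called, with a black bar at the median. The interferon-stimulated genes lie almost wholly to the right of 0, and the MHC class II genes to the left.

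Interferon-stimulated genes made up the largest and most uniform rise. Of 53 tested, 52 rose and none fell, beside 17.0% of named genes that rose, and only Ifi44l was left, which was not well above background in any channel. They include genes for inhibitors of viral RNA and replication, the immunity-related GTPases and guanylate-binding proteins that attack vacuoles holding pathogens, and regulators of the interferon response itself. In the following sentences log2 intensities are given with replicate 1 first. Cmpk2, a mitochondrial nucleotide kinase, stood at 8.51 and 8.49 at 1 h and at 16.13 and 16.001 at 4 h. The 4 h values lay far above the 1 h values in both replicates, a rise of 7.56 (SE 0.17), or 189-fold (limma, adjusted p = 9.11e-12), which was the largest among genes measured at both times. Ifit3, an inhibitor of viral RNA translation and signalling, went from 8.26 and 8.42 to 15.56 and 15.31. Rsad2 (viperin), an enzyme that makes a chain-terminating nucleotide, went from 10.13 and 10.48 to 16.82 and 16.91. Ifit2 went from 7.45 and 7.67 to 14.22 and 13.95. These rises were 7.10, 6.56 and 6.52 on the log2 scale, and in none of the genes did the times overlap. Usp18, which removes ISG15 and dampens interferon receptor signalling, rose by 5.45 (SE 0.25), and Ifit1 by 4.76 (SE 0.18).

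Members differed in how far they had already gone at 1 h. At 1 h Cmpk2 and Ifit3 lay little above their levels in untreated WT macrophages, which were 7.79 and 7.83 for Cmpk2 and 7.65 and 8.06 for Ifit3. Isg15, the ubiquitin-like modifier, had been 10.54 and 10.695 untreated, was at 15.27 and 15.22 after 1 h and at 17.48 and 17.33 after 4 h. Its late step was thus smaller, 2.16 (SE 0.14). Cxcl10, a chemokine for T cells, had been 8.14 and 8.40 untreated and was already at 16.58 and 16.27 at 1 h, with 17.25 and 17.32 at 4 h. Its change of 0.86 (SE 0.28, limma, adjusted p = 0.0341) lost the call when any 1 of the 4 arrays was left out, with values from 0.70 to 1.01. The untreated and 1 h RNAs are those of other comparisons too, so the earlier step is given here as levels only.

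**Figure D2:**
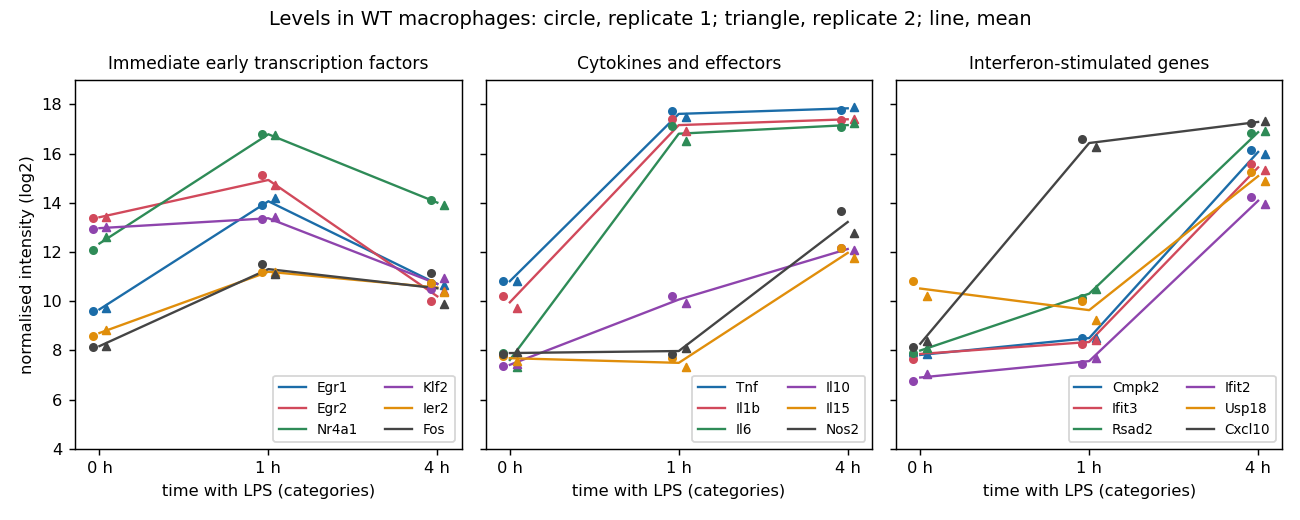
Normalised log2 intensity (y axis) of 18 genes in WT macrophages without LPS and after 1 h and 4 h (x axis, categories not to scale), circles for replicate 1, triangles for replicate 2 and lines for the mean. Immediate early factors such as Egr2 peak at 1 h, and Cmpk2, Ifit3 and Ifit2 have their steep climb between 1 h and 4 h. Tnf, Il1b and Il6 are about as high at 1 h as at 4 h, near the top of the scale.

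The GTPases rose together. Ifi47 went from 11.22 and 11.13 to 16.70 and 16.44, Irgm1 from 10.24 and 10.06 to 15.52 and 15.25, and Igtp (Irgm3) from 10.12 and 10.02 to 15.31 and 15.05. These are rises of 5.40, 5.24 and 5.11 with no overlap between the times. Tgtp2, another GTPase of this family, rose by 6.12 (SE 0.25). Its near-identical neighbour Tgtp1 was not well above background at 1 h and was at least 13.4-fold higher at 4 h (limma, adjusted p = 5.06e-11), where the bound compares 4 h with the lowest signal well above background in each channel. Ifi44, a cytoplasmic antiviral protein, was at least 19.2-fold higher and Ifi213, of the Ifi200 family of nucleic acid sensors, at least 10.5-fold higher by the same bound. Probes of the pairs Tgtp1 and Tgtp2 and Ifit3 and Ifit3b and of the Ifi200 family may share signal, so the split within them is uncertain.

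Promoter sequences are shown because the genes of this list rose together and a large share of them holds the same short motif close to the start. Windows of 300 bases around each RefSeq start (GRCm38.p6), most of each window lying before the start, were searched on both strands for the ISRE, spelled as TTTC, any 2 bases and TTTC. It was found in 26 of the 44 list members with a promoter in the table (59.1%), in 99 of 1082 genes higher by over 2-fold (9.15%) and in 45 of 1491 lower by over 2-fold (3.02%). Over all 32851 promoters the share was 3.44%, and over those of named genes tested 3.95%. A match is a description of the letters and shows no binding. Windows were printed in order of rise and only for members with a match upstream of the start. Cmpk2 and Ifit2, which rose more than Irgm1 and Igtp, gave no window. Bases upstream of the start are printed 5′ to 3′ on the strand of the gene, with the motif in capitals, where GAAA, any 2 bases and GAAA is the same motif read on the other strand.
Ifit3 (chr19:34583367-34583456, plus strand): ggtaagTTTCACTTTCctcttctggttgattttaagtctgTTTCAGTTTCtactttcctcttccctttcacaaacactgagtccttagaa
Rsad2 (chr12:26456523-26456612, minus strand): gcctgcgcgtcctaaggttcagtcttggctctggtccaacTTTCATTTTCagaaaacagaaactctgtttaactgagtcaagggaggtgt
Irgm1 (chr11:48871421-48871484, minus strand): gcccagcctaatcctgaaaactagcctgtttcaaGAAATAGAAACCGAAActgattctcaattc
Igtp (chr11:58199482-58199555, plus strand): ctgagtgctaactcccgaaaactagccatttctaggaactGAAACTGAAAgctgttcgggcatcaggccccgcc
The 90 bases printed for Ifit3 occur letter for letter before Ifit3b, at chr19:34607763-34607852 on the plus strand, and both genes rose, Ifit3b by 5.69. Ifit3 and Irgm1 hold 2 matches each, which overlap in Irgm1, and Rsad2 and Igtp hold 1.

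Of 21 genes that make and relay the interferon signal, 9 rose and 5 fell, beside 17.0% and 21.1% of named genes, and the median was 0.18; without replicate 2 of the 1 h arrays 3 fell. Ifnb1, which codes for interferon beta, had been 6.09 and 6.08 in untreated cells, was 13.22 and 12.97 at 1 h and 13.06 and 13.48 at 4 h. The 1 h and 4 h values overlapped, and the change of 0.18 (SE 0.18) did not pass the test. Downstream components were among the rises. Jak2, a kinase of cytokine receptors, went from 12.24 and 12.36 to 15.11 and 14.96, and Stat5a, a transcription factor downstream of such receptors, from 9.93 and 9.94 to 12.38 and 12.25. These rises were 2.73 and 2.38, without overlap between the times. From the list of interferon-stimulated genes, Irf7, the factor that amplifies interferon production, went from 9.69 and 9.19 to 14.72 and 14.28, without overlap. On the falling side, Ifngr1, the ligand-binding chain of the interferon gamma receptor, fell by 1.25 (SE 0.12) and Irf3, the factor that acts before interferon is made, by 0.77 (SE 0.08). The probes of Ifnar1, a chain of the interferon alpha and beta receptor, disagreed, with -1.19 for the brightest and 0.14 and 0.17 for the others.

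Immediate early transcription factors fell more often than they rose. Of 28 tested, 14 fell and 5 rose, with a median of -0.61, beside 21.1% of named genes that fell; without replicate 1 of the 4 h arrays 3 rose. Egr2, a zinc finger factor of growth and myeloid differentiation, stood at 15.11 and 14.74 at 1 h and at 9.99 and 10.40 at 4 h. It was far lower in both 4 h samples, with a change of -4.73 (SE 0.19, limma, adjusted p = 5.96e-10) or 26.6-fold, the largest fall among genes measured at both times, and its 4 h values also lay under the 13.38 and 13.44 of untreated cells. Egr1, its relative, had 13.92 and 14.20 at 1 h and 10.76 and 10.64 at 4 h. Nr4a1, an orphan nuclear receptor that restrains inflammatory genes, had 16.80 and 16.77 and then 14.10 and 13.91. Both fell without overlap, by 3.36 (SE 0.15) and 2.78 (SE 0.18), and both stayed above their untreated levels of 9.62 and 9.72 and of 12.08 and 12.61. Klf2, a factor of quiescent endothelium and myeloid cells, went from 13.34 and 13.40 to 10.48 and 10.93, under its untreated 12.92 and 13.01. Egr4 was at least 5.42-fold lower, being not well above background at 4 h.

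Members of the AP-1 family differed from one another. Jun fell by 1.68 (SE 0.14), Fosb by 1.57 (SE 0.13), Jund by 1.13 (SE 0.10) and Junb by 0.64 (SE 0.18), while Fosl1 rose by 0.83 (SE 0.14). Fos had 11.50 and 11.10 at 1 h and 11.16 and 9.88 at 4 h. The 4 h values lay on either side of the lower 1 h value, and the change of -0.78 (SE 0.31, limma, adjusted p = 0.0799) did not pass. With the replicate number as a block the change of Fos was called, and without replicate 1 of the 4 h arrays it was -1.42. Gadd45b, a stress sensor that limits JNK signalling, rose by 1.03 (SE 0.12), from 14.17 and 13.99 to 15.20 and 15.00. Myc, a transcription factor that drives growth, had 12.03 and 12.11 and then 12.83 and 12.95, higher in both 4 h samples. The same promoter windows were searched for the binding motif of CREB, spelled TGACGTCA, which was found in 2 of 22 members (9.09%), 1.79% of all promoters and 2.66% of those of named genes tested, and for the serum response CArG box, in 2 of 22 (9.09%), 1.63% and 1.69%. The windows with a match are shown for Egr2 (CArG box) and for Btg2 and Maff (CREB motif), which were induced at 1 h and lower at 4 h, with the motif in capitals.
Egr2 (chr10:67537454-67537543, plus strand): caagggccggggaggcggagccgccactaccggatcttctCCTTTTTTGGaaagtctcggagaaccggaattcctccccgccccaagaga
Btg2 (chr1:134079274-134079361, minus strand): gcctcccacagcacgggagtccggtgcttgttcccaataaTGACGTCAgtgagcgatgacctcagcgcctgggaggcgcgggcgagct
Maff (chr15:79347451-79347519, plus strand): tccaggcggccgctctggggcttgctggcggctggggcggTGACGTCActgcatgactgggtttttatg
Btg2, an antiproliferative gene, went from 13.13 and 12.92 to 11.80 and 11.18, and Maff, a small MAF factor, from 12.52 and 12.67 to 11.75 and 11.85, both falls without overlap.

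Of 22 early cytokines and chemokines, 12 rose and 1 fell, beside 17.0% and 21.1% of named genes, with a median of 0.80. Tnf, Il1b and Il6 were not among the called genes. Tnf stood at 17.72 and 17.51 at 1 h and 17.78 and 17.90 at 4 h, against 10.81 and 10.81 in untreated cells. Il1b had 17.41 and 16.90 and then 17.38 and 17.41, and Il6, from the list of late cytokines, 17.11 and 16.50 and then 17.06 and 17.25. The times overlapped for Il1b and Il6 and lay close together for Tnf, and the changes of 0.23, 0.24 and 0.35 had SEs of 0.26, 0.26 and 0.28. These genes lay near the top of the scale, where Lyz2 had 18.10 in replicate 1 at 1 h. Quantile scaling gives the channels the same top values, which limits how far genes this bright can rise. Cxcl3, a neutrophil chemokine, rose from 12.15 and 12.16 to 14.85 and 15.10, a gain of 2.82 (SE 0.29). Il10, the main anti-inflammatory cytokine of macrophages, rose from 10.22 and 9.91 to 12.16 and 12.08, a gain of 2.05 (SE 0.33). Ccl12, a monocyte chemokine, rose from 7.14 and 6.38 to 10.62 and 10.11, with a wide replicate spread at 1 h, where 1 of the 2 channels was not well above background. Each was higher in both 4 h samples. Il1a rose by 1.32 (SE 0.26) and Csf1, the growth factor of macrophages, by 1.47 (SE 0.25). Tnfsf9, the ligand of the co-stimulatory receptor CD137, was the one that fell, from 16.06 and 15.60 to 14.41 and 14.34. Without replicate 1 of the 4 h arrays, or with loess alone, 2 passed as lower. Il33, an alarmin, was not well above background at 1 h, with 6.35 and 5.99, and had 7.99 and 7.65 at 4 h, a call that was lost without replicate 2 of the 1 h arrays (limma, adjusted p = 0.0522).

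Late cytokines and effectors carried large rises. Of 28 tested, 20 rose and 3 fell, beside the same shares of named genes, with a median of 2.16; without replicate 1 of 1 h or replicate 2 of 4 h 1 fell. Nos2, inducible nitric oxide synthase, stood at 7.86 and 8.08 at 1 h, as in untreated cells (7.86 and 7.92), and at 13.66 and 12.77 at 4 h. The gain was 5.24 (SE 0.37, limma, adjusted p = 1.22e-07), or 37.9-fold, in both replicates. Edn1 (endothelin 1) rose from 7.80 and 7.70 to 12.21 and 12.95, and Lcn2, which binds bacterial siderophores, from 7.88 and 7.88 to 12.84 and 12.51. Il15, a growth factor of NK and memory T cells, rose from 7.67 and 7.31 to 12.15 and 11.77. All 3 were flat or low at 1 h in both replicates and high in both 4 h samples, with gains of 4.83, 4.80 and 4.47. Il27, a cytokine that acts on T cells, rose by 4.53 (SE 0.16), Tnfsf15 by 4.79 (SE 0.19) and Il19, an IL-10 relative, by 4.54 (SE 0.22). The colony-stimulating factors for granulocytes and for granulocytes and macrophages, Csf3 and Csf2, rose by 3.36 (SE 0.33) and 3.11 (SE 0.40). Hp (haptoglobin) fell by 1.57 (SE 0.18). Arg1, arginase, which competes with NOS2 for arginine, had 12.72 and 11.17 at 1 h and 10.17 and 8.16 at 4 h, with a wide replicate spread at both times. The fall of 2.78 (SE 0.70, limma, adjusted p = 0.00682) became -2.003 without replicate 1 of 1 h and -1.78 without replicate 2 of 4 h, and passed in neither case.

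Single feedback regulators were held from 1 h, rose or fell. Of 28 genes of NF-kB subunits, inhibitors and feedback, 13 rose and 5 fell with a median of 0.38; 3 fell without replicate 2 of 1 h or replicate 1 of 4 h. Nfkbia (IkB alpha), which retains NF-kB in the cytoplasm, stood at 17.23 and 16.92 at 1 h and 17.00 and 16.90 at 4 h, and Tnfaip3 (A20) at 16.43 and 16.08 and then 16.40 and 16.23. The times overlapped for both. Socs1, the inhibitor of JAK kinases, went from 8.10 and 8.26 to 13.37 and 13.10, a rise of 5.06 (SE 0.17) with no overlap. Nfkb1, the p105 and p50 subunit, rose by 2.15 (SE 0.18) and Peli1, a ubiquitin ligase of TLR signalling, by 2.01 (SE 0.13). Falls included Nfkbiz, a nuclear cofactor of NF-kB, by 1.56 (SE 0.19), Zfp36 (tristetraprolin), which destabilises cytokine mRNA, by 1.47 (SE 0.19), and Cyld, a deubiquitinase, by 1.29 (SE 0.21). Nfkbiz and Zfp36 had been lower in untreated cells, at 8.72 and 8.54 and at 8.87 and 8.63, than their 4 h values of 13.07 and 12.85 and of 11.56 and 11.14. Of 19 MAP kinase feedback genes, 5 rose and 4 fell, shares near the 17.0% and 21.1% of all named genes, and the balance turned to 3 and 8 with loess within arrays alone. Dusp16, a phosphatase of JNK and p38, rose from 12.31 and 12.25 to 14.03 and 13.55, and Trib3, a pseudokinase of the stress response, rose by 1.95 (SE 0.16). Dusp1, which ends p38 signalling, fell from 13.31 and 13.14 to 12.39 and 11.61, and Trib1 from 12.62 and 12.02 to 10.77 and 9.99.

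Of 27 Toll-like receptors and adaptors, 7 rose and 7 fell, with a median of 0.01, which is not far from the 17.0% and 21.1% of all named genes that rose and fell. Tlr13, the endosomal receptor for bacterial ribosomal RNA, went from 14.60 and 14.47 to 11.24 and 11.88, a fall of 2.98 (SE 0.30) seen in both replicates. Tlr3, the receptor for double-stranded RNA, rose from 6.61 and 6.69, only 1 of which was well above background, to 8.64 and 8.27. Tlr4, the LPS receptor itself, rose from 9.51 and 8.90 to 10.85 and 10.41. Neither overlapped between the times, and the gain of Tlr4 was 1.43 (SE 0.20). The adaptor Tirap, which bridges TLR4 and MYD88, rose by 1.55 (SE 0.14) and Myd88 by 1.13 (SE 0.12), while Ticam1 (TRIF) fell by 0.76 (SE 0.11) and Unc93b1, the chaperone of endosomal receptors, by 0.75 (SE 0.15). Cd14 and Ly96 (MD-2), the co-receptors of TLR4, had changes of 0.05 (SE 0.25) and 0.00 (SE 0.14).

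Antigen presentation moved in opposite directions for the 2 classes of MHC. MHC class I molecules carry peptides made by the proteasome and pumped into the endoplasmic reticulum by TAP, and class II molecules carry peptides from endosomes, loaded with help of the H2-DM chaperone. Of 16 class I genes, 11 rose and none fell, with a median of 0.97. Of 11 class II genes, 9 fell and none rose, with a median of -1.04, where 17.0% of all named genes rose and 21.1% fell. Nlrc5, the transactivator of class I genes, went from 10.15 and 10.32 to 13.68 and 13.64, and the transporter subunit Tap1 from 9.93 and 9.88 to 13.37 and 13.12. The gains of 3.42 (SE 0.13) and 3.34 (SE 0.15) were seen in both replicates. Tap2 rose by 1.80 (SE 0.16) and the immunoproteasome subunits Psmb8 and Psmb9 by 1.37 (SE 0.11) and 1.28 (SE 0.11). The class I chains themselves were bright and flat, with 16.86 and 16.87 and then 16.94 and 16.83 for H2-K1, a change of 0.02 (SE 0.14). H2-DMa went from 12.24 and 12.52 to 10.59 and 10.68, and H2-Oa, which restrains H2-DM, from 11.77 and 12.50 to 10.01 and 10.32. Falls of 1.74 (SE 0.13) and 1.97 (SE 0.28) came without overlap. H2-Aa, a class II chain, fell by 1.04 (SE 0.24), whereas H2-Ab1 changed by -0.24 (SE 0.14) and was not called.

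B cell markers fell over the same step, and B cells use class II molecules too. Of 12 tested, 8 fell and 1 rose, with a median of -0.99, and the mean log2 intensity over the list was 11.28 and 11.72 at 1 h and 10.38 and 10.66 at 4 h. Cd79b, a subunit of the B cell receptor, went from 15.13 and 15.46 to 12.17 and 12.74, a fall of 2.84 (SE 0.19). No member passed as higher without replicate 1 of the 1 h arrays, and 2 did without replicate 2. In these bulk cultures fewer B cells and less RNA per B cell cannot be told apart, and the part of B cells in the class II values was not tested. The counts of the other marker lists stand beside the 17.0% of all named genes that rose and the 21.1% that fell. The T and NK cell list had 2 of 16 members higher and 1 lower, the mast cell list 1 of 10 higher, the dendritic cell list 1 of 9 higher and 3 lower, the neutrophil list 2 of 11 lower, the eosinophil list none of 6, and the mesothelial and fibroblast list 2 of 15 higher. Some of these small counts changed by 1 or 2 genes when an array was left out.

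**Figure D3:**
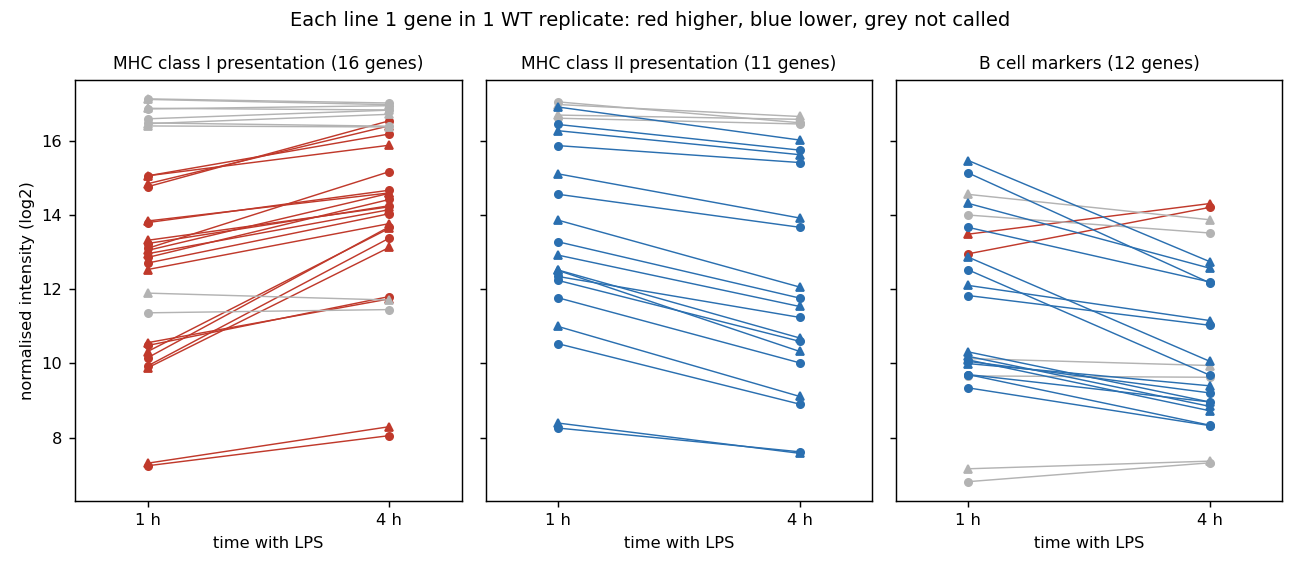
Normalised log2 intensity (y axis) at 1 h and 4 h of LPS (x axis) of the genes of MHC class I presentation (16), MHC class II presentation (11) and B cell markers (12), 1 line per gene and WT replicate, circles for replicate 1 and triangles for replicate 2, red for higher, blue for lower and grey for not called. Blue lines fill the class II panel and most of the B cell panel, and the class I panel holds only red and grey lines.

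Ligands that instruct T cells rose in part. Of 15 co-stimulatory and checkpoint genes, 7 rose and 2 fell, beside 17.0% and 21.1% of named genes, with a median of 0.56. Icosl, the ligand of ICOS, fell by 0.60 (SE 0.20, limma, adjusted p = 0.0384), a call that was lost when any 1 of the 4 arrays was left out, with values from -0.70 to -0.50. The list then held 1 fall, or 2 without replicate 2 of the 1 h arrays. Tnfsf18 (GITR ligand), with 6.82 and 6.77 and then 6.18 and 6.22, was not well above background at 4 h. Slamf1, a receptor of the SLAM family, went from 6.87 and 6.91 to 10.45 and 10.23. Cd274 (PD-L1), the inhibitory ligand of PD-1, went from 12.15 and 12.06 to 15.14 and 14.94, and Cd40 from 12.85 and 12.81 to 15.40 and 15.50. All were higher in both 4 h samples, by 3.45 (SE 0.26), 2.94 (SE 0.13) and 2.62 (SE 0.10). Cd86, which binds CD28, had 13.54 and 13.06 and then 12.96 and 12.77, and its change of -0.43 was not called.

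Of 26 chemoattractant and metabolite receptors, 13 fell and 8 rose, beside 21.1% and 17.0% of named genes, with a median of -0.35. Cxcr4, the receptor for CXCL12, went from 10.84 and 11.08 to 7.73 and 7.64, a fall of 3.28 (SE 0.15). S1pr1, which guides exit into lymph and is also a lymphocyte gene, went from 12.08 and 12.58 to 9.22 and 9.70, and C3ar1, the receptor of complement C3a, from 11.43 and 11.03 to 9.25 and 9.31. All 3 were lower in both 4 h samples. Hcar2, a receptor for hydroxybutyrate and niacin, rose by 1.87 (SE 0.24), and the formyl peptide receptors Fpr1 and Fpr2 by 1.06 (SE 0.13) and 1.17 (SE 0.11). Of 25 scavenger, Fc and lectin receptors, 10 fell and 3 rose, with a median of -0.34. Stab1 (stabilin 1) fell from 11.93 and 11.29 to 9.82 and 8.81, Clec4n (dectin 2) by 1.61 (SE 0.27), Scarb1, the HDL receptor, by 1.48 (SE 0.23) and Olr1, a receptor for oxidised LDL, by 1.11 (SE 0.17). Axl, a receptor for phosphatidylserine ligands, rose from 9.83 and 9.67 to 11.85 and 11.83, and its relative Tyro3 rose by 1.47 (SE 0.14). Trem1, an amplifier of inflammation, had 9.89 and 9.502 and then 9.77 and 8.95 with overlap, and its change of -0.34 (SE 0.29) was not called but passed at -0.74 without replicate 1 of 4 h (limma, adjusted p = 0.0379).

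Inflammasome and pyroptosis genes divided, with 6 of 16 higher, 9 lower and a median of -0.44, beside 17.0% and 21.1% of named genes; without replicate 1 of the 4 h arrays 3 rose. The caspases that cut IL-1 beta and gasdermin D, Casp1 and Casp4 (caspase 11), rose by 1.23 (SE 0.14) and 1.25 (SE 0.20), from 12.93 and 12.89 to 14.22 and 14.07 for Casp1. P2rx7, the channel through which extracellular ATP triggers NLRP3, went from 12.33 and 12.08 to 10.05 and 9.95. Nlrc4, the sensor of flagellin, went from 10.13 and 10.16 to 8.38 and 8.47. Both fell in both replicates, by 2.21 (SE 0.16) and 1.72 (SE 0.14), but the dimmer probes of P2rx7 gave -0.79 and -0.47.

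Metabolic genes fell more often than they rose. In glycolysis, 5 of 21 rose and 10 fell, beside 17.0% and 21.1% of named genes, with a median of 0.02 whose sign turned with other scalings, and the risers were 2 hexokinases, a glucose transporter and 2 genes of the phosphofructokinase step. Pfkfb3, which makes the activator of phosphofructokinase, went from 10.95 and 10.96 to 14.24 and 12.92, Hk2 (hexokinase 2) from 10.20 and 10.05 to 12.74 and 12.44, and Pfkp from 10.56 and 10.58 to 13.08 and 12.85. All were higher in both 4 h samples, with a wide spread between replicates for Pfkfb3. Other enzymes fell, such as Tpi1 by 1.43 (SE 0.13), Gpi1 by 1.20 (SE 0.11) and Pkm by 1.07 (SE 0.11), as did the lactate exporter Slc16a3 by 2.09 (SE 0.18). Acod1, which makes itaconate, had been at 12.68 and 13.36 in untreated cells and stood at 17.19 and 17.17 and then 17.32 and 17.44, with a change of 0.20 (SE 0.17) that was not called. Of 22 genes of the TCA cycle and respiratory chain, 13 fell and 1 rose, with a median of -0.43. The isocitrate dehydrogenases Idh1, from 10.34 and 9.61 to 8.09 and 7.61, and Idh2, from 13.23 and 13.07 to 11.25 and 11.02, fell most, while Idh3a, a subunit of the NAD-dependent enzyme, rose from 10.703 and 10.80 to 11.62 and 11.83.

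All 17 genes of prostaglandin and leukotriene synthesis were called, 6 higher and 11 lower. Ptgs2 (COX-2), the inducible cyclooxygenase, went from 14.44 and 13.58 to 16.45 and 16.27, having been 7.30 and 6.96 in untreated cells. Ptgs1 (COX-1), the constitutive one, went from 11.95 and 11.45 to 9.40 and 8.49. The times did not overlap for either, with 2.35 (SE 0.26) and -2.75 (SE 0.27). Pla2g4a, which releases arachidonic acid, rose by 2.08 (SE 0.19) and Ptges, the inducible prostaglandin E synthase, by 0.81 (SE 0.11). The leukotriene genes of the list fell, by 2.43 (SE 0.22) for Alox5, 1.94 (SE 0.17) for Alox5ap, 1.01 (SE 0.10) for Lta4h and 1.26 (SE 0.12) for Ltc4s. Ptgis, the prostacyclin synthase, fell by 2.26 (SE 0.31). Of 27 sterol and LXR genes, 16 fell and 1 rose, with a median of -0.65. Ch25h, which makes the antiviral oxysterol 25-hydroxycholesterol, was the riser, from 9.92 and 8.80 to 13.18 and 12.81, a gain of 3.64 (SE 0.44). Without replicate 1 of 1 h there were 2 risers. Mvk (mevalonate kinase) went from 12.09 and 11.60 to 9.47 and 9.34, Abca1, the cholesterol exporter, from 11.92 and 11.81 to 10.36 and 9.56, and Mylip, which degrades the LDL receptor, from 12.12 and 12.31 to 10.51 and 10.54. In the list of NRF2, heme and metal genes, 4 of 21 rose and 2 fell, with a median of 0.09, beside 17.0% and 21.1% of all named genes, so the share of rises was near the background and that of falls below it. Slc39a14, a zinc and iron importer, rose from 8.79 and 8.53 to 11.62 and 11.39, and Slc7a11, the cystine importer, by 1.74 (SE 0.34).

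Transcription factors of macrophages moved both ways. Of 29 tested, 12 fell and 8 rose, beside 21.1% and 17.0% of named genes, with a median of -0.14. Cebpa, a factor of myeloid differentiation, had been 12.996 and 12.59 in untreated cells, was 11.26 and 11.01 at 1 h and 8.39 and 8.47 at 4 h, and fell by 2.70 (SE 0.15) in the late step. Tfeb, which drives lysosomal genes, went from 9.23 and 9.08 to 6.94 and 7.32, and Nr1h3 (LXR alpha) from 10.39 and 10.57 to 8.71 and 8.76. Both were lower in both 4 h samples. Batf2 rose from 10.25 and 10.03 to 13.74 and 13.61 and Cebpd from 13.29 and 13.11 to 16.26 and 15.68, higher in both replicates. Batf, of the same bZIP class, rose by 3.37 (SE 0.19). Of 11 macrophage markers, 7 fell, and of 14 markers of large peritoneal macrophages 7 fell, with medians of -0.69 and -0.998. Csf1r, the receptor of the macrophage growth factor, went from 17.53 and 17.41 to 16.43 and 16.16, and Cd93, a receptor of the large peritoneal macrophage, from 14.67 and 13.88 to 11.62 and 11.10. Gata6, the factor that specifies these cells, changed by 0.43 (SE 0.27) and was not called. Lyz2, the lysozyme gene that drives Cre in the KO, went from 18.10 and 17.67 to 17.27 and 16.89, and its fall of 0.80 (SE 0.21, limma, adjusted p = 0.00841) lost the call without replicate 1 of 1 h (-0.59) or replicate 2 of 4 h (-0.61).

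Proprotein convertases and TGF-beta signalling, the biology for which the KO was made, gave 4 rises and 7 falls among 19 genes tested, beside 17.0% and 21.1% of named genes, with a median of -0.21. Furin rose by 0.58 (SE 0.14, limma, adjusted p = 0.00442), a call that was lost without replicate 1 of 4 h (0.39, adjusted p = 0.0812). Pcsk7, a convertase of the same family, rose from 9.09 and 9.04 to 10.27 and 9.95 without overlap, and Pcsk4 from 6.72 and 6.84 to 7.63 and 7.86. On the TGF-beta side, Smad3, a signal transducer, fell from 10.93 and 11.22 to 9.03 and 9.62, Tgfb3 by 1.72 (SE 0.16) and the receptor Tgfbr2 by 1.33 (SE 0.21), whereas Smad2 rose by 0.89 (SE 0.16). Tgfb1, the ligand that FURIN is known to process, changed by -0.21 (SE 0.18) and was not called.

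Among genes of adhesion, matrix and proteases, 11 of 31 rose and 6 fell, beside 17.0% and 21.1% of named genes, with a median of 0.10 whose sign turned with loess alone. Has1 (hyaluronan synthase 1) rose from 7.36 and 7.08 to 10.95 and 9.95, and Mmp3 (stromelysin 1), not well above background at 1 h, had 6.24 and 6.35 and then 8.56 and 8.69. Adam8 fell by 1.76 (SE 0.26), Plau (urokinase) by 1.42 (SE 0.17) and Mmp8 by 1.32 (SE 0.20). DNA replication and mitosis genes gave 8 of 26 higher and 3 lower, but 2 and 5 with loess within arrays alone, and 3 and 5 risers without replicate 2 of 1 h and without replicate 1 of 4 h. Ccne1 (cyclin E1) rose from 8.58 and 9.03 to 11.40 and 11.40, and Cenpa, the centromeric histone, fell from 10.72 and 10.43 to 7.84 and 7.86. Of 14 genes often used as controls, 3 rose and 3 fell, shares near those of all named genes, and with loess alone 1 and 3. Actb had 17.62 and 17.81 and then 17.90 and 17.73, a change of 0.10 (SE 0.13) that was not called and turned its sign with other scalings, whereas Gusb fell by 1.97 (SE 0.17).

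Some of the largest changes were in genes outside these lists. Plagl1, a zinc finger factor of growth arrest, went from 7.71 and 7.47 at 1 h to 13.97 and 13.89 at 4 h, a rise of 6.34 (SE 0.13, limma, adjusted p = 3.85e-12) or 81.0-fold, and was back at a mean of 7.27 at 24 h. Its 4 probes disagreed in size, with 6.28, 0.71 and 0.32 for the others. Ccne1, Ifit3b, Nlrc5, Pfkp, Smad3, Tgtp2 and Tyro3 also had probes over 1 apart, with the larger change in the brightest. AA467197, the mouse gene of the mitochondrial protein NMES1, went from 8.73 and 8.97 to 14.34 and 14.47. Gm12250, an interferon-inducible GTPase gene, went from 6.99 and 6.87 to 12.41 and 12.06. None of the 3 overlapped between the times. Lhx2, a homeobox factor, was not well above background at 1 h, with 6.14 and 6.21, had 10.35 and 10.03 at 4 h and a mean of 7.17 at 24 h. U90926 was not well above background at 1 h either, was at least 13.1-fold higher at 4 h and had a mean of 14.49 at 24 h.

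On the falling side, Slc43a2, a transporter of large neutral amino acids, went from 12.58 and 12.56 to 8.07 and 8.54. Cerk (ceramide kinase) went from 14.06 and 14.001 to 9.68 and 9.87. Tmem37, a membrane protein, went from 13.81 and 13.22 to 9.48 and 9.25. These falls of 4.26, 4.26 and 4.15 were seen in both replicates. Changes were -3.86 (SE 0.15) for Rasa3, a GTPase-activating protein for RAS and RAP1, -3.69 (SE 0.30) for Pla2g15, a lysosomal phospholipase, -4.03 (SE 0.17) for Rab11fip5, a vesicle recycling protein, and -3.88 (SE 0.22) for Engase, which trims free glycans. Eepd1, Fam214a, Ypel3 and Klc4 had changes between -4.04 and -3.69. Not well above background at 4 h were 0610040J01Rik, at least 8.65-fold lower, Nat8l, which makes N-acetylaspartate, at least 7.55-fold, Cracr2b at least 5.95-fold and the ubiquitin ligase gene Rnf144b at least 5.92-fold. Over all genes and transcripts, 408 of those higher were not well above background in either 1 h channel, and 667 of those lower were not well above background in either 4 h channel.

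The same step was measured in the RNA labelled KO. There 11734 genes and transcripts were called, 31.8% of those tested, and no difference of the step between genotypes passed (0 of 36927, or 0%, limma; 959 at an unadjusted p under 0.05). Without replicate 1 of the 1 h arrays 11 passed, with the replicate number as a block 5 and with the software's processed signals 9. Among the interferon-stimulated genes 52 rose in KO too, with a median of 3.91, and among the MHC class II genes 10 fell, with a median of -1.49. For Cmpk2 the step was 7.56 in WT and 7.59 in KO, for Egr2 -4.73 and -4.81, for Nos2 5.24 and 5.69 and for Nr4a1 -2.78 and -1.74. Among the named genes the difference was widest for Abca1, named here after its values were seen, with -1.90 in WT and -0.10 in KO, a difference of 1.80 (SE 0.31) that did not pass (limma, adjusted p = 0.466). With 2 RNAs per genotype and time, a p that misses the threshold does not show that the genotypes act alike.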

How the data were processed

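Gene expression was measured on 8 Agilent 2-colour arrays of 1 slide, scanned once, from 50 ng of purified RNA, amplified and labelled. The deposited scanner files, made by the authors with Feature Extraction 10.7.3, hold the intensity of each spot and its local background on a linear scale. The authors processed them further with limma, and 1 table of their log2 ratios was not used here. Median signals were background-corrected (normexp, offset 50), normalised by loess within arrays and by quantiles between arrays, and averaged over the spots of a probe, and the brightest probe stood for a gene (limma 3.58.1 in R 4.3.3). Features whose log2 intensity averaged 6 or more were fitted over all 16 channels with the separate-channel model and its within-spot correlation of 0.106 (statmod 1.5.0), and p-values were adjusted by Benjamini-Hochberg over all 36927 features at 0.05. Groups came from the sample titles. The bound behind "at least N-fold" compares the bright group with the higher of the lowest signal well above background and the dim probe's own signal, per channel after loess and Aquantile scaling. The number of arrays limits the precision. The RNAs, gene lists and tests were chosen with earlier results of these data known. Genes named outside a list are the largest rises and falls, and others within lists were named after their values were seen. Promoters came from RefSeq (GRCm38.p6). Alternatives were another background offset, other scalings, processed signals, other filters, fewer arrays in the fit, a replicate block, the methods' t-test and leaving out each replicate. Values of some single genes are not reported here.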

Additional observations from a re-analysis of the deposited data

Results flagged for a closer look

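In 2 named genes both replicates of the WT RNA moved one way and both of the RNA labelled KO the other. Nfkbia changed by -0.22 and -0.02 in WT and by 0.02 and 0.15 in KO, and the difference of the step was 0.21 (SE 0.19, limma, adjusted p = 0.9997). Trem1 changed by -0.12 and -0.55 in WT and by 1.10 and 0.26 in KO, and the difference was 1.02 (SE 0.39, limma, adjusted p = 0.9997). Neither difference passed the test.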

How the results depend on the processing

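No called change of a named gene turned its sign under any alternative run, but uncalled ones such as those of Actb and Il1b did, and the balance of higher and lower calls moved with the scaling. The WT calls, 10935 as reported, numbered 10413 with loess alone, of which 2819 were higher, and 9315 in a fit of only the 4 WT channels. With the software's processed signals, 2787 were higher and 3508 lower by over 2-fold, and the step differed between genotypes in 9. The methods' t-test after Benjamini-Hochberg gave 11 in WT (5 higher and 6 lower, of which 4 and 5 by over 2-fold) and 380 in KO, against 9299 and 9897 unadjusted. With the replicate number as a block, 12554 were called in WT and 5 differences of the step passed, and of the named genes Fos alone gained a call. Deviations from the group means went together by replicate number (correlations from 0.339 to 0.565 over the 6 pairs of times, 0.452 for 1 h and 4 h). The number is also the dye and the labels tie it to no animal or day, so a pairing and the dye cannot be told apart. Leaving out 1 replicate gave 9170 to 9779 calls in WT, 4127 to 4695 higher and 4949 to 5138 lower, 1759 to 1824 higher and 2099 to 2231 lower by over 2-fold, 9517 to 10921 in KO, and 0 to 11 differences of the step. The cause of these shifts was not tested. Signal over background limits the dim genes: 249 of the called features were not well above background in any WT channel of the comparison.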

Other observations

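In 10 genes and transcripts the change from 1 h to 4 h differed by over 2 log2 units between the WT replicates, in each because replicate 2 at 1 h stood apart, and none of them was called. The widest gap was that of AK135850, with 6.04 and 16.44 at 1 h and 6.09 and 6.03 at 4 h, and Gpr82 had 6.38 and 12.37 and then 6.15 and 6.33. Mki67, a marker of proliferating cells, had 9.85 and 9.66 in untreated cells, 14.64 and 14.27 at 1 h and 13.61 and 13.47 at 4 h. Hdc, which makes histamine and is on the mast cell list, rose from 11.35 and 10.98 to 15.07 and 14.50, while the tryptase gene Tpsb2 had 10.61 and 10.77 and then 10.90 and 10.91.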
